A study of Mus musculus with 5 samples.

Results

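Proliferating tumor macrophages were described in single-cell RNA-seq libraries of 5 synovial sarcoma (SyS) tumors from *hSS2* mice. They were chosen by measured values, as cells with at least 750 detected genes and at most 25% mitochondrial UMIs (unique molecular identifiers, each 1 captured RNA molecule). Each held UMIs of at least 4 of the 6 macrophage genes *C1qa*, *C1qb*, *C1qc*, *Csf1r*, *Ms4a7* and *Adgre1*. Each also held fewer than 5 UMIs of the SyS gene *Adgrb3* and none of the endothelial gene *Cdh5*. Summed over the 5 cell-cycle genes *Mki67*, *Top2a*, *Birc5*, *Ube2c* and *Cdk1*, each held at least 3 UMIs. This rule found 401 cells, 11.4% of 3518 gated macrophages, among 42516 cells kept of 51670 called. They are called cycling macrophages below and were set against 2933 non-cycling macrophages of the same gate with at most 1 UMI of the 5 genes, within each tumor. A further 184 macrophages with 2 UMIs entered neither class.

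All tumors expressed human *SS18::SSX2*, which Cre supplied as TATCre protein had released in the hindlimb of young mice, and were taken when the animals became morbid. The histology labels were BP (biphasic, with an epithelial component) for 2 tumors, and MP (monophasic, spindle cells only), MP+BP and PD+MP (PD, poorly differentiated) for 1 tumor each, so the last 3 labels have no replicate error. The fusion starts only where the injected Cre reached cells of the limb, no tumor-free tissue was among these 5 libraries, and both BP tumors share a leading number in their labels whose meaning was not stated. Cells were freed enzymatically and red cells were lysed before capture.

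Macrophages are phagocytes that depend on Csf1 receptor signaling. In many adult tissues they are kept up partly by division in place and partly by monocytes that arrive from blood. In a dividing cell, D-type cyclins with Cdk4 and Cdk6 and then cyclin E with Cdk2 relieve the Rb family's hold on E2F factors, which turn on DNA replication genes. B-Myb and Foxm1, acting with the MuvB complex, later turn on the genes of mitosis.

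Both gene groups of the rule were detected broadly in the chosen cells, and are given as a description because they chose them. Of the 401 cells, 99.5% held *C1qa*, 88.3% *Csf1r* and 89.0% *Adgre1* UMIs, and 78.8% held *Mki67*, 78.6% *Top2a* and 74.8% *Cdk1*. In the sums per tumor *Mki67* lay between 216 and 404 CPM (a gene's UMIs scaled to a common total of all UMIs in the summed cells), and *Top2a* between 387 and 688. The cells reached well past the threshold in most cases, since 218 held 10 or more UMIs of the 5 genes, while 65 held exactly 3. Just inside the threshold, cells with 3 UMIs had median counts of 6 to 11 UMIs over 45 other mitosis genes across the tumors, and just outside it, cells with 2 UMIs had 3 to 5.

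Cycling macrophages held more UMIs than the cells they were compared with. Their median UMI count per cell was 7550 to 10974 across the tumors against 4324 to 6378 in non-cycling macrophages. For this reason a second comparison used, for each cycling macrophage, the non-cycling macrophage of the same tumor nearest in total UMIs. Matching also cut the comparison cells from 2933 to 401, and in MP it left the medians unequal, at 9959 UMIs in cycling and 8266.5 in matched cells, so a call lost under it cannot be put down to depth alone. Cells of 2 kinds caught in 1 droplet could also pass the gate. From 11.8% to 28.9% of cycling macrophages held at least 1 *Adgrb3* UMI, against 10.7% to 18.4% of non-cycling ones, and 3.00% to 15.8% against 2.37% to 4.25% were among the highest doublet scores. BP replicate 2 was highest in both for cycling cells. Another 395 cells with the macrophage genes and no *Cdh5* were kept out only by 5 or more *Adgrb3* UMIs, and 155 of them (39.2%) passed the cell-cycle threshold.

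An independent reading of tumor RNA was the EGFP entry of the reference, which no rule used. At least 1 EGFP UMI was found in 13 of 401 cycling macrophages (3.24%) and 34 of 2933 non-cycling ones (1.16%), against 31.7% of 19632 cells with at least 5 *Adgrb3* UMIs and no macrophage gene, called Adgrb3-high cells here, and 35.2% of the 395 cells kept out. In the sums EGFP lay at 1.64, 11.9, 4.19, 3.41 and 3.35 CPM in cycling macrophages of BP replicates 1 and 2, MP, MP+BP and PD+MP, at 1.22 to 2.85 CPM in non-cycling macrophages, and at 24.6 to 43.3 CPM in Adgrb3-high cells. The values of cycling macrophages rest on 2, 4, 5, 1 and 4 EGFP UMIs in the same tumor order. The higher CPM of BP replicate 2 rests on too few UMIs for EGFP alone to show whether this tumor differs. In its cycling macrophages *Adgrb3* lay at 59.4 CPM, against 30.6 in its non-cycling ones, and the cause was not tested. The part of tumor RNA in the results below was not tested except where a value without such cells is given.

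The share of macrophages in cycle differed between tumors. With all UMIs it was highest in MP, at 26.9% (118 of 439 cells, exact 95% interval 22.8 to 31.3). PD+MP followed at 13.8% (111 of 805, 11.5 to 16.4) and BP replicate 1 at 12.1% (100 of 826, 9.96 to 14.5). The lowest were MP+BP at 6.79% (34 of 501, 4.75 to 9.35) and BP replicate 2 at 4.01% (38 of 947, 2.85 to 5.47). MP stood above every other tumor, while PD+MP and BP replicate 1, and MP+BP and BP replicate 2, did not differ beyond their intervals, which cover counting error only. Thinned to 5000 UMIs per cell, with shallower cells left out, the shares were 22.4%, 14.02%, 11.9%, 13.5% and 6.94% in the same order, from 200 to 579 cells, so that MP had the highest and BP replicate 2 the lowest value. The interval of MP (18.0 to 27.2) then overlapped that of MP+BP (9.09 to 19.0), and the interval of BP replicate 2 (4.70 to 9.81) overlapped those of BP replicate 1 and MP+BP. Neutrophils, which do not divide after leaving the marrow, passed the same threshold in 4 of 66 cells (6.06%, 1.68 to 14.8), and in 4 of 137 cells (2.92%, 0.801 to 7.31) when the minimum of 750 genes was dropped, a choice made after seeing the data. Median depth was 1519 to 2453 UMIs in neutrophils and 4435 to 7194 in macrophages. The 4 neutrophils came 2 each from the BP replicates, where their median UMI counts of 6815 and 11779 exceeded the 1865 and 1947 of the neutrophils below the threshold. Only the share of MP lay above the interval of the 66 neutrophils. That of BP replicate 2 lay below their 6.06% and above the 2.92%, so it was not clearly set apart from this background, which rests on few and shallow cells.

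The 3 tumors with BP in their label averaged 7.64% ± 4.11 (SD, n = 3) and the 2 without it 20.3% ± 9.26 (SD, n = 2), with no overlap. The difference of -12.7 percentage points gave p = 0.2 in the two-sided exact permutation test, the smallest p that 3 tumors against 2 can give. Thinned to 5000 UMIs the difference in the cycling share of macrophages was -7.40, with the same p of 0.2 in the exact permutation test.

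**Figure D1:**
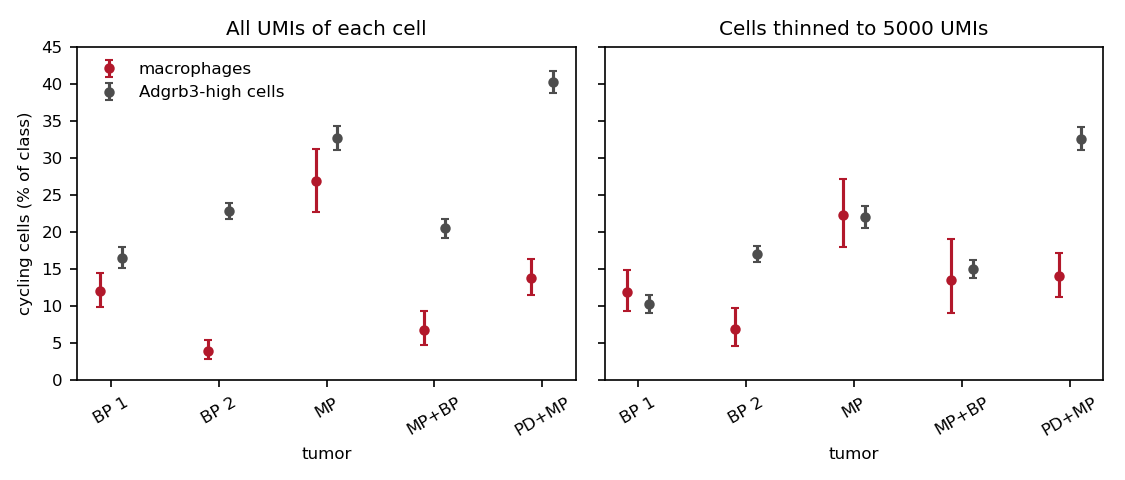
Share of cycling cells (%, vertical axis) in macrophages (red) and Adgrb3-high cells (gray) of each tumor, with exact 95% intervals as bars, from all UMIs on the left and from cells thinned to 5000 UMIs on the right. In the left panel macrophages lie below Adgrb3-high cells in every tumor, and after thinning they lie below them in 3 of 5.

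Adgrb3-high cells were in cycle more often than macrophages when all UMIs were counted, in each tumor, at 16.6%, 22.8%, 32.7%, 20.5% and 40.2% for BP replicates 1 and 2, MP, MP+BP and PD+MP. At 5000 UMIs per cell the shares were 10.3%, 17.1%, 22.0%, 15.0% and 32.6%. The thinned difference, macrophages less Adgrb3-high cells, averaged -5.65 percentage points (SD 8.57, n = 5 tumors), ranged from -18.6 in PD+MP to 1.65 in BP replicate 1, and gave p = 0.375 in the two-sided exact sign-flip permutation test, which cannot give a p under 0.05 over 5 pairs.

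Cycling macrophages were found among cells with and without markers of the main macrophage states. The thinned cycling share of cells with a UMI of *Mrc1*, the mannose receptor of resident-type macrophages, less that of cells without, averaged -2.56 percentage points (SD 4.92, higher in 2 of 5 tumors, exact permutation p = 0.375). For *Ccr2*, the chemokine receptor of monocytes and their recent progeny, it averaged -3.19 (SD 6.17, higher in 2 of 5, exact permutation p = 0.25). For *H2-Aa*, an MHC class II chain, it was 10.3%, 3.78%, 26.8%, 12.2% and 13.3% with a UMI and 14.8%, 14.2%, 18.7%, 21.4% and 14.2% without in BP replicates 1 and 2, MP, MP+BP and PD+MP, lower in 4 of 5 tumors, and averaged -3.39 (SD 7.45, exact permutation p = 0.3125). None of these 4 paired tests, the one against Adgrb3-high cells included, passed the threshold, and all adjusted p-values over the 4 were 0.375. Only 3 to 50 cells per tumor held a *Ccr2* UMI after thinning. Without thinning the *Mrc1* difference turned to 4.76 and the *Ccr2* difference to 0.568.

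Cell-cycle genes other than the 5 of the rule followed them. The threshold on the 5 genes chose the cells, so higher levels of genes that rise with division, those of replication and mitosis above all, were favored by that choice. Their values and calls are given as a description and not as support, with no test of these groups. Summed over 37 genes of DNA replication, cycling macrophages held 2731, 2101, 2434, 2204 and 2139 CPM in BP replicates 1 and 2, MP, MP+BP and PD+MP, and non-cycling macrophages 501 to 756. Over 45 mitosis genes the sums were 3533, 7042, 4348, 4398 and 4773 CPM against 562 to 643. The mitosis sum was 1.29 times the replication sum in BP replicate 1, 1.79 in MP, 2.00 in MP+BP, 2.23 in PD+MP and 3.35 in BP replicate 2. In cycling Adgrb3-high cells the range was narrower, at 1.86 to 2.33. The macrophage sums held only 34 to 118 cells, and 38 in BP replicate 2, against 429 to 1696 Adgrb3-high cells. The part of these cell numbers in the spread was not tested. Of single cells, 259 of 401 (64.6%) held more mitosis than replication UMIs, from 53 of 100 (53.0%) in BP replicate 1 to 32 of 38 (84.2%) in BP replicate 2. The share was 48.4% in non-cycling macrophages and 54.5% in all Adgrb3-high cells, cycling or not.

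Of the 37 replication genes 35 passed the filter on low counts, which a gene can also pass through its level in cycling cells alone. Of these 33 were higher and none was lower, with a median log2 fold change of 2.07 where the median of all 9270 genes tested was -0.02. All 9270 were tested together in edgeR with the tumor as a block, and 10.8% of them passed the threshold (Benjamini-Hochberg adjusted p under 0.05) as higher and 8.79% as lower. In 7.02% every cycling sum lay above every non-cycling sum, and in 2.19% below. *Clspn* (chr4:126556935-126593903), the checkpoint mediator claspin, stood at 44.5, 54.2, 68.1, 43.9 and 50.3 CPM in cycling macrophages of BP replicates 1 and 2, MP, MP+BP and PD+MP and at 1.51 to 2.88 in non-cycling ones, a log2 fold change of 4.65 ± 0.23 (SE). *Rrm2*, a ribonucleotide reductase subunit, averaged 75.8 ± 21.6 CPM (SD, n = 5) against 3.66 ± 1.67, *Mcm10*, which helps to fire replication origins, 22.0 ± 7.27 against 1.36 ± 1.23, and *Tk1*, thymidine kinase, lay at 70.4 to 101 CPM against 4.48 to 11.0. The 2 genes that did not pass were the licensing factor *Cdt1*, at a log2 fold change of 0.25, and the uracil glycosylase *Ung*, at 1.12.

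Mitosis genes moved further, with 43 of 44 higher, none lower and a median log2 fold change of 4.30, again as a description. They too can pass the filter on low counts through the chosen cells alone. *Plk1* (chr7:122159439-122169873), the polo-like kinase of mitotic entry, stood at 22.6, 48.8, 31.6, 16.9 and 54.6 CPM in the tumors' cycling macrophages and at 0.216 to 1.80 in the others, without overlap. *Hmmr* (chr11:40701395-40733422), a spindle protein, stood at 71.0, 144, 77.3, 81.1 and 93.0 CPM against 1.03 to 4.99. *Ccna2*, cyclin A2, averaged 81.3 ± 16.6 CPM (SD, n = 5) against 2.30 ± 1.39, and *Knl1*, a kinetochore scaffold, 67.7 ± 20.2 against 2.17 ± 1.35. The exception was the securin gene *Pttg1*, whose log2 fold change was -0.15.

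Promoters of these groups held different shares of short motifs that cell-cycle regulators are known to use, and the difference was not tested. Windows of 300 bases around gene starts (RefSeq, build GRCm38.p6) were searched on both strands for the cell cycle genes homology region (CHR, TTTGAA or TTTAAA), a MuvB motif, for CCAAT, the motif of NF-Y, and for E2F motifs (TTTCGCGC or TTTGGCGC). Windows were matched for 37 of 45 mitosis, 31 of 37 replication and 7426 of the 9270 tested genes. A CHR was present in 30 of 39 mitosis windows (76.9%), 19.4% of replication windows, 28.9% of the windows of genes higher in cycling macrophages, 19.3% of those of all tested genes and 27.6% of all 32851 windows. For CCAAT the shares were 74.4%, 55.6%, 49.2%, 37.1% and 37.4%. An E2F motif was present in 10 of 36 replication windows (27.8%), 1 mitosis window (2.56%), 5.38% of windows of higher genes, 1.64% of tested and 0.813% of all windows. Genes lower in cycling macrophages had a CHR in 18.1%, CCAAT in 35.7% and an E2F motif in 0.814% of windows. A match describes these letters only and is not shown to be a bound site.

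The windows of 3 genes are shown to set the types side by side, with every match to the motifs in capitals. *Plk1* (chr7:122159185-122159484, plus strand) holds 3 CHR and 1 CCAAT, *Hmmr* (chr11:40733388-40733687, minus strand) 1 CHR and 5 CCAAT boxes in either orientation, and *Clspn* (chr4:126556730-126557029, plus strand) 1 E2F motif and 2 CCAAT boxes but no CHR.
Plk1: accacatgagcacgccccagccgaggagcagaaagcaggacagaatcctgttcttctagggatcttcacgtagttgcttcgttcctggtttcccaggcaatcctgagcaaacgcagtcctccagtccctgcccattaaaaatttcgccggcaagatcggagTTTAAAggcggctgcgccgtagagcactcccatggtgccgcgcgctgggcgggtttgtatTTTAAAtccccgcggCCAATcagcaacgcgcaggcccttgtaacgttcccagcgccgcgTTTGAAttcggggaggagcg
Hmmr: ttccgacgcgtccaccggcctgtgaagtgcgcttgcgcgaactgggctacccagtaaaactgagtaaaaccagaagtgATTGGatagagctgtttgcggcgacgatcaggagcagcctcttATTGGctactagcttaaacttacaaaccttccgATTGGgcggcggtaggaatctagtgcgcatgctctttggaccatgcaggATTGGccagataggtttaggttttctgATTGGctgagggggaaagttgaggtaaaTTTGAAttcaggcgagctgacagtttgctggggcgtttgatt
Clspn: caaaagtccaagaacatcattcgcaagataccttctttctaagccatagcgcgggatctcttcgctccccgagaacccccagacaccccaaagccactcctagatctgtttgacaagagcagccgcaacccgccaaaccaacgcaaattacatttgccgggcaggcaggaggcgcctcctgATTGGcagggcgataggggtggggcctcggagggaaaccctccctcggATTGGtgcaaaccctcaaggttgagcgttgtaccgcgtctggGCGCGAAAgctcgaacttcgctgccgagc

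Regulators of the cycle were higher in part. Those that rise with division, here and among the G1 genes below, were favored by the choice of cells. They can pass the filter on low counts through these cells alone, so their higher calls are a description. Of 14 tested genes of the E2F, MuvB and Rb family, 8 were higher, none was lower and the median log2 fold change was 1.05. *Foxm1* averaged 34.7 ± 9.85 CPM (SD, n = 5) against 2.13 ± 0.99 and the repressor *E2f8* 30.5 ± 10.4 against 2.30 ± 0.65, both without overlap. The activator *E2f1* stood at 40.6, 27.1, 23.3, 23.6 and 23.9 CPM against 10.8, 8.02, 21.9, 11.5 and 11.8 in BP replicates 1 and 2, MP, MP+BP and PD+MP (log2 fold change 1.16 ± 0.26), MP had the smallest step, and the call was lost without BP replicate 1, at 0.85. The pocket protein *Rbl1* and the MuvB subunit *Lin9* had log2 fold changes of 1.75 ± 0.24 and 1.44 ± 0.19. The other pocket protein genes did not pass the test, with log2 fold changes of -0.12 ± 0.14 for *Rb1* and 0.10 ± 0.19 for *Rbl2*, and the sign of both turned with the UMI-matched cells.

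Among 19 tested G1 genes 8 were higher and 3 lower, against 5 and 3 of 18 with UMI-matched cells, and D-type cyclins were not among the higher ones. *Ccnd1* stood at 109, 94.8, 116, 128 and 110 CPM in cycling and 95.1, 80.2, 118, 75.3 and 98.4 CPM in non-cycling macrophages of BP replicates 1 and 2, MP, MP+BP and PD+MP (log2 fold change 0.22 ± 0.11, edgeR adjusted p = 0.2), with overlapping groups. *Ccnd2* had a log2 fold change of -0.36 ± 0.16 (edgeR adjusted p = 0.126), which became -0.97 and passed with UMI-matched cells, and passed at -0.61 without BP replicate 2. *Ccnd3* was lower, from 38.1 ± 11.8 CPM (SD, n = 5) to 27.8 ± 9.41, and lost the call under 9 of 16 alternatives, UMI-matched cells included (-0.35). Cyclin E genes were higher, *Ccne1* at 17.9 ± 7.76 CPM against 2.82 ± 0.92 and *Ccne2* at 17.2 ± 5.69 against 2.93 ± 1.15, as were *Cdk4* and *Cdk2*, with log2 fold changes of 0.78 and 1.03 that became 0.47 and 0.81 and did not pass with UMI-matched cells. Of the genes of Cdk inhibitors, *Cdkn2c* (chr4:109660876-109667189), encoding p18, rose most, from 12.5, 13.2, 15.6, 22.4 and 17.0 CPM to 85.1, 127, 95.5, 74.3 and 107 in the same tumor order (log2 fold change 2.66 ± 0.17). *Cdkn2d*, encoding p19, rose by 1.71 ± 0.20, and *Cdkn2a* also passed as higher, at 0.71 (edgeR adjusted p = 0.0428). *Cdkn1a* and *Cdkn1b*, encoding p21 and p27, did not pass, at -0.34 ± 0.12 and -0.22 ± 0.14, although *Cdkn1a* passed as lower under 4 of 17 alternatives, among them without BP replicate 2 (-0.43). *Btg1* and *Btg2*, antiproliferative genes, were both lower, by log2 fold changes of -0.68.

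**Figure D2:**
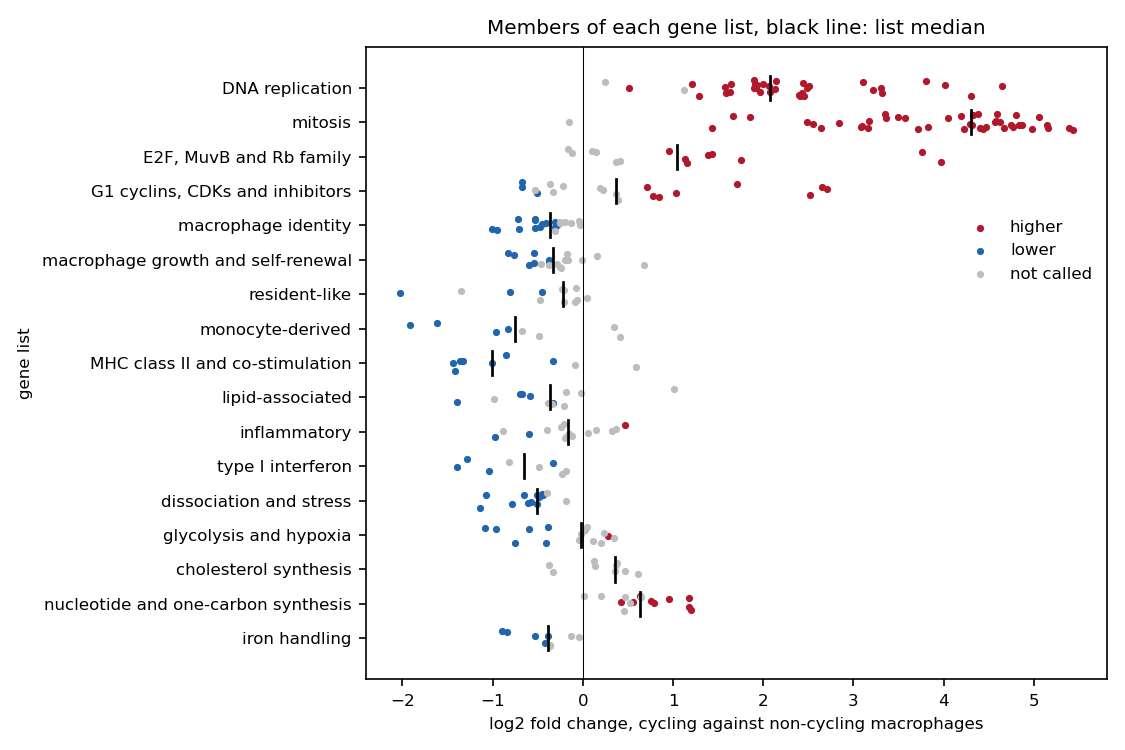
Log2 fold change of cycling against non-cycling macrophages (horizontal axis) for the tested members of 17 gene lists, each point 1 gene, red higher, blue lower and gray not passing the test, with the list median as a black line. Replication and mitosis genes lie almost wholly to the right, at medians of 2.07 and 4.30, and macrophage identity, MHC class II and dissociation genes to the left.

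Genes of nucleotide supply were higher in part, and a change in sterol synthesis genes was not detected. In the nucleotide and one-carbon list 9 of 15 genes were higher, none was lower and the median log2 fold change was 0.63. *Dctpp1*, which clears abnormal dCTP, stood at 119, 73.2, 121, 87.8 and 105 CPM against 37.4 to 54.8 (log2 fold change 1.17 ± 0.11, edgeR adjusted p = 1.28e-06). *Shmt2*, the mitochondrial serine hydroxymethyltransferase, *Ctps*, CTP synthase, and *Paics*, a purine synthesis enzyme, had log2 fold changes of 1.20 ± 0.27, 1.18 ± 0.32 and 0.79 ± 0.13. With UMI-matched cells, where 7.08% of 8390 genes were higher and 5.09% lower, 4 of 13 of this list passed, and *Shmt2* did not. Of 9 cholesterol synthesis genes 0 passed in edgeR or DESeq2, and 0 had an unadjusted p under 0.05, with a median log2 fold change of 0.35.

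Macrophage identity genes were lower in cycling cells. Of 20 genes 13 were lower, none was higher and the median log2 fold change was -0.36, with 7 lower when UMI-matched cells were used and 11 in the 3 tumors left without BP replicate 2 and MP+BP. *Apoe* (chr7:19696109-19699188), the lipid carrier apolipoprotein E, stood at 13734, 15713, 15773, 9102 and 15918 CPM in cycling and at 27591, 33586, 21541, 25762 and 26251 CPM in non-cycling macrophages of BP replicates 1 and 2, MP, MP+BP and PD+MP, so the groups did not overlap (log2 fold change -0.95 ± 0.11, edgeR adjusted p = 6.37e-06). The Fc receptor *Fcgr3* stood at 298, 268, 326, 240 and 247 CPM against 408 to 517 (-0.71 ± 0.10, edgeR adjusted p = 8.16e-05), again without overlap. The lysozyme gene *Lyz2* averaged 5456 ± 1863 CPM (SD, n = 5) against 8553 ± 1007, and *Cd14*, the endotoxin co-receptor, 586 ± 246 against 1258 ± 701. The genes that did not pass included *Cd68* at -0.13, *Aif1* at -0.05, the myeloid factor *Spi1* at -0.19 and *Cx3cr1* at -0.03.

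Regulators tied to macrophage growth and self-renewal followed the same direction. None of 18 was higher, 7 were lower, and 4 were lower with UMI-matched cells. The transcription factor gene *Maf* stood at 341, 371, 348, 284 and 450 CPM in cycling and 285, 375, 382, 415 and 615 CPM in non-cycling macrophages of BP replicates 1 and 2, MP, MP+BP and PD+MP and did not pass (-0.16 ± 0.11, edgeR adjusted p = 0.328). The quiescence-linked factors *Klf4* and *Klf2* were lower, at 152 ± 70.9 against 272 ± 128 CPM and at 129 ± 67.7 against 227 ± 156 (SD, n = 5). *Klf2* was 163 CPM in both classes of MP. *Egr2*, *Irf8* and the cytokine receptor chain *Csf2rb* were lower by log2 fold changes of -0.54, -0.38 and -0.38, and with UMI-matched cells the values were -0.62, -0.33 and -0.48 and none of the 3 passed in edgeR. *Myc* did not pass, at 0.15 ± 0.25, from 60 UMIs in all cycling macrophages.

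**Figure D3:**
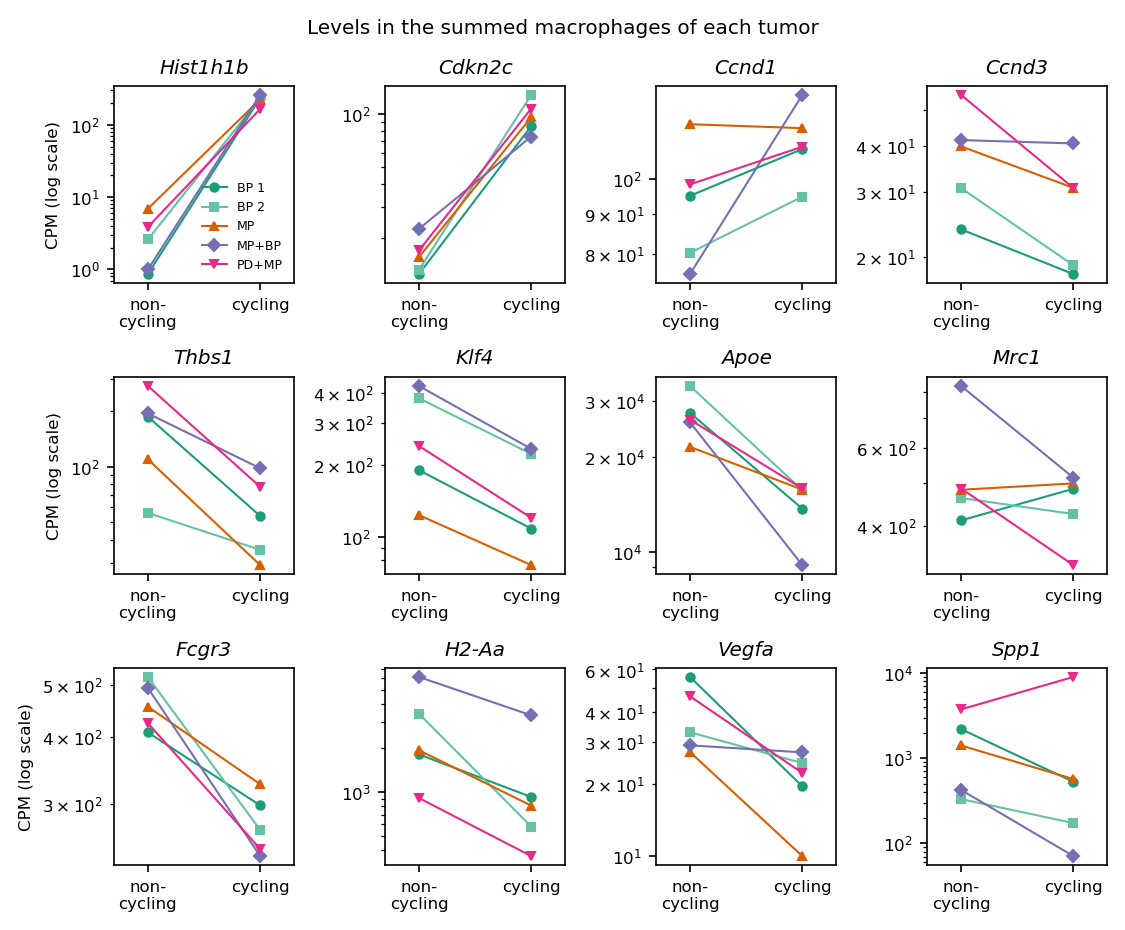
Levels of 12 genes (CPM, log scale on the vertical axis) in the summed non-cycling and cycling macrophages of each tumor, joined by a line per tumor. *Cdkn2c* rises and *Apoe*, *Thbs1* and *Klf4* fall in all 5 tumors, *Ccnd1* and *Mrc1* have mixed signs, and *Spp1* is higher in cycling cells of PD+MP only.

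Among markers of origin only lower calls were made, in both the resident and the monocyte list. Of 12 tested resident-type genes 3 were lower and none was higher. *Mrc1* averaged 450 ± 76.5 CPM (SD, n = 5) against 533 ± 166 (log2 fold change -0.20 ± 0.12, edgeR adjusted p = 0.265) and was higher in 2 of 5 tumors, and the folate receptor *Folr2* averaged 106 ± 18.4 against 101 ± 55.8 (0.04 ± 0.20, edgeR adjusted p = 0.919). *Selenop*, the selenium carrier, was lower without overlap, at 625 to 1092 CPM against 1104 to 1908. Of 8 tested monocyte-type genes 4 were lower and none higher. *Thbs1*, thrombospondin, stood at 53.9, 35.2, 29.1, 98.0 and 77.6 CPM against 187, 55.9, 110, 195 and 275 (-1.62 ± 0.15, edgeR adjusted p = 6.75e-07), and *Ccr2* averaged 15.5 ± 13.5 against 21.1 ± 16.6 and did not pass (-0.68 ± 0.31, edgeR adjusted p = 0.142). It passed as lower under 4 of 16 alternatives, at -0.73 to -0.97, the last without MP+BP. Fewer cells of one origin and less RNA per cell cannot be told apart in such sums.

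MHC class II genes showed the widest gap between the 2 ways of choosing comparison cells. Of 9 tested genes in a list of MHC class II and co-stimulation genes, 7 were lower, with a median log2 fold change of -1.0015. The co-stimulation gene *Cd86* was among the lower ones, at -0.34. The other co-stimulation genes, *Cd80* and *Cd40*, did not pass, at -0.09 and 0.59. *H2-Aa* (chr17:34282744-34287823) stood at 925, 580, 807, 3352 and 364 CPM in cycling and 1811, 3439, 1933, 6139 and 910 CPM in non-cycling macrophages, lower in each tumor but spread more widely between tumors than between classes (-1.36 ± 0.17, edgeR adjusted p = 1.86e-05). *Cd74*, the invariant chain, and *H2-Eb1* and *H2-Ab1* had log2 fold changes of -1.33 ± 0.16, -1.41 ± 0.18 and -1.44 ± 0.18. With UMI-matched cells 1 of 9 remained lower, namely *H2-Ab1* at -0.67, while *H2-Aa* was -0.47 (edgeR adjusted p = 0.0638, from 2.6e-48 to 0.242 over the alternatives) and *Cd74* -0.51 (edgeR adjusted p = 0.0636, from 1.3e-48 to 0.223). A fit without the tumor block also ended the call of these 4 genes.

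The lipid-associated list, which marks macrophages loaded with cell debris and lipid, had 5 of 12 genes lower and none higher, and 9 lower with UMI-matched cells. *Abca1*, a cholesterol exporter, averaged 651 ± 106 CPM (SD, n = 5) against 1067 ± 220 and *Cd63* 1357 ± 277 against 2023 ± 126, both without overlap. *Spp1*, osteopontin, differed in sign between tumors, with 528, 173, 570 and 71.0 CPM in cycling against 2197, 331, 1412 and 424 in non-cycling macrophages of BP replicates 1 and 2, MP and MP+BP, but 9013 against 3752 in PD+MP (-0.98 ± 0.36, edgeR adjusted p = 0.0709). Its value was -1.82 with UMI-matched cells, which passed, and it also passed when PD+MP was left out. *Trem2* was lower by -0.34 ± 0.11, a call that 9 of 17 alternatives kept. *Arg1*, arginase, was lower by -1.40 ± 0.31 but came to 0 CPM in cycling macrophages of BP replicate 2 and MP, from 197 UMIs in all cycling macrophages. The *Arg1* call was lost in DESeq2 and without the tumor block.

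Inflammatory genes mostly did not pass, with 1 of 16 higher, the chemokine *Cxcl10* at 0.47, and 2 lower. With UMI-matched cells these 3 calls were lost, *Cxcl10* being 0.15, and DESeq2 did not call it higher either. *Il1b* fell from 449, 1018, 533, 541 and 262 CPM to 265, 336, 287, 466 and 93.0 (-0.98 ± 0.15, edgeR adjusted p = 0.000175), but with UMI-matched cells it was -0.36 (edgeR adjusted p = 0.34, from 5.13e-21 to 0.34 over the alternatives). Type I interferon response genes were lower in 4 of 8 cases under both choices of cells and none was higher. *Isg15* stood at 17.2, 10.8, 13.3, 27.0 and 172 CPM against 54.1, 24.8, 34.6, 62.3 and 378 (-1.28 ± 0.14, edgeR adjusted p = 3.32e-06), and PD+MP was highest in both classes. *Rsad2* and *Ifit3* had log2 fold changes of -1.39 ± 0.29 and -1.04 ± 0.25, and *Bst2* -0.33 ± 0.10.

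Genes of glycolysis and hypoxia were mixed, with a median log2 fold change of -0.02. Of 15 genes 6 were lower and 1, *Gapdh*, was higher at 0.28, a call lost with UMI-matched cells (0.09) and in DESeq2. *Vegfa* (chr17:46016993-46032369), the angiogenic factor, stood at 19.5, 24.4, 9.97, 27.0 and 22.2 CPM against 55.8, 32.8, 27.1, 28.9 and 46.4, a log2 fold change of -1.08 ± 0.20 (edgeR adjusted p = 0.00111) with a small step in MP+BP. The glucose transporter *Slc2a1* averaged 17.2 ± 2.04 CPM (SD, n = 5) against 32.8 ± 6.65, without overlap, and the lipid droplet gene *Hilpda* was lower by -0.75 ± 0.16. Of 9 iron handling genes 5 were lower and none higher. Transferrin, *Trf*, averaged 248 ± 59.4 against 479 ± 123 CPM, heme oxygenase *Hmox1* 673 ± 664 against 1002 ± 657, and the ferritin genes *Fth1* and *Ftl1* had log2 fold changes of -0.42 and -0.39.

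Immediate early and heat-shock genes, which tissue dissociation is known to induce, were lower in 11 of 13 cases and higher in none, and in 5 of 13 with UMI-matched cells. *Hspa1a* averaged 87.4 ± 8.62 CPM (SD, n = 5) against 206 ± 58.1 and *Hspa1b* 55.7 ± 19.3 against 115 ± 20.99, calls that UMI matching ended, whereas *Egr1* at -0.78 ± 0.14 and *Ier2* at -0.66 ± 0.14 kept theirs. This list moved in the same cells as the lower macrophage genes above, and its part in those results was not tested.

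**Figure D4:**
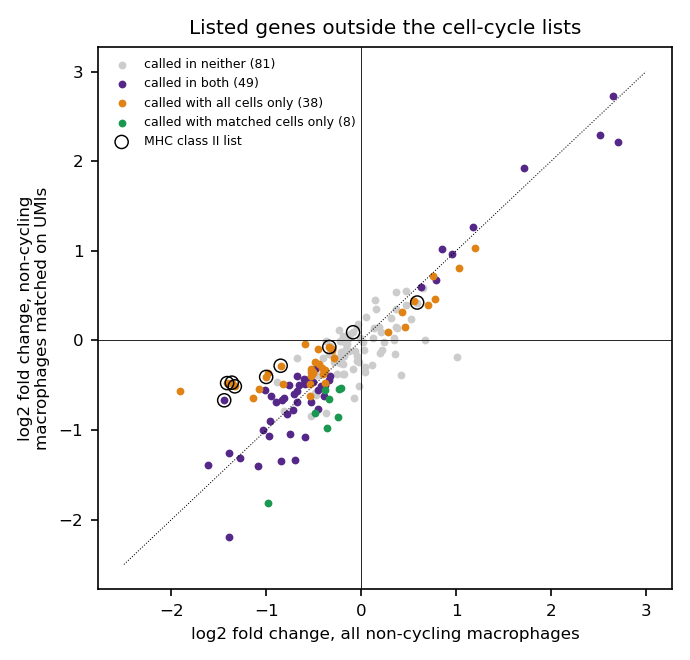
Log2 fold change against all non-cycling macrophages (horizontal axis) and against those matched on UMIs (vertical axis) for 176 listed genes outside the replication, mitosis and E2F lists. Of these, 49 passed in both (purple), 38 only with all cells (orange) and 8 only with matched cells (green). Circles mark the list of MHC class II and co-stimulation genes. Its *H2* genes and *Cd74* lie nearer to 0 on the vertical axis, above the dotted line of equal values, and the co-stimulation gene *Cd40* lies below it.

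Outside the lists, the highest genes were also of the cell cycle, which the choice of cells by 5 cell-cycle genes favored. These highest genes can pass the filter on low counts through the cycling cells alone and are given as a description. Histone genes led, with *Hist1h1b* (chr13:21779883-21780625), a linker histone of S phase, at 236, 236, 226, 260 and 166 CPM against 0.862 to 6.92 (log2 fold change 6.30 ± 0.25), followed by *Hist1h3c*, *Hist1h2ap* and *Hist1h2ab* at 5.92, 5.80 and 5.73. Copies of the last 3 are nearly identical and most histone mRNAs carry no poly(A) tail, so their single levels are uncertain. The others were the repair enzyme *Neil3*, *Iqgap3*, *Pimreg*, *Shcbp1*, the abscission protein *Cep55* and the PCNA-binding *Pclaf*, at 5.10 to 5.62. The lowest were *Tcp11l2* at 17.7 ± 1.96 against 51.3 ± 12.4 CPM (SD, n = 5, without overlap), the histidine-degrading *Hal*, the interleukin-18 decoy *Il18bp*, *Slfn5*, *Trim30d*, the glucose-uptake brake *Txnip*, *Gm19951*, the urea cycle enzyme *Asl*, the H3K4 demethylase *Kdm5b* and the Fc receptor *Fcgr4*, at log2 fold changes of -1.06 to -1.48, of which *Gm19951* and *Asl* did not pass with UMI-matched cells.

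Markers of other cell types were mostly low in cycling macrophages. Of 5 tested SyS markers 0 passed in edgeR or DESeq2, and 0 had an unadjusted p under 0.05. No marker of another type was called higher, except 1 pericyte gene once the highest doublet scores were left out, while the collagen gene *Col1a1*, the granulocyte receptor *Csf3r* and the hemoglobin gene *Hbb-bs* were lower. Most markers were too low to be tested. The 12 SyS markers summed to 82.9 to 347 CPM in cycling and 108 to 219 CPM in non-cycling macrophages and were higher in the cycling cells of 3 of 5 tumors, and 1191 to 2115 CPM in cycling Adgrb3-high cells. The highest sum, 347 CPM, was that of BP replicate 2, where EGFP in CPM was highest too, though from only 4 UMIs. The 8 T and NK markers summed to at most 13.6 CPM, the 4 B-cell markers to 14.8 and the 6 dendritic markers to 13.6, the last being lower in the cycling cells of every tumor, and the T-cell genes *Cd3e*, *Cd3g* and *Trbc2* were at 0 in all cycling macrophages. The 8 endothelial markers summed to 61.2 to 164 CPM against 79.7 to 137, the 6 fibroblast markers to 7.39 to 181 against 65.3 to 160, the 5 neutrophil markers to 17.6 to 47.5 against 37.1 to 76.9, the 4 mast-cell markers to 0 to 51.2 against 2.81 to 91.2 and the 5 erythroid markers to 6.82 to 78.8 against 5.23 to 182. The 6 pericyte markers summed to 5.03 to 116 CPM in cycling macrophages of 4 tumors but to 450 CPM in MP+BP, against 108 CPM in its non-cycling macrophages. MP+BP also had the highest fibroblast sum, 181 against 91.7 CPM, and the lowest sum of the 20 macrophage identity genes, 23662 against 46877 CPM, where the other tumors had 35326 to 40594 against 46130 to 60367. The part of this RNA in the lower macrophage genes was not tested beyond the counts without MP+BP.

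The same step into the cycle was then compared with that of Adgrb3-high cells, split by the same thresholds, in 1 model of 20 sums whose interaction term tests the difference of the 2 steps. Of 16216 genes, 418 (2.58%) had a higher step in macrophages and 434 (2.68%) a lower one, and over the 9270 genes tested in macrophages the shares were 9.75% and 4.23%. These counts depended on the cells taken, becoming 84 and 1603 without any cell holding an *Adgrb3* UMI among macrophages, 117 and 1778 without the highest doublet scores, and 76 and 1003 without BP replicate 2, so mainly genes that passed throughout are described. *Arhgap19*, which acts at cytokinesis, *Espl1*, the separase that cuts cohesin, and the Schlafen genes *Slfn8* and *Slfn9*, whose reads may be shared between close relatives, were among the 5 lowest and passed under every alternative run. *Arhgap19* (chr19:41766588-41802047) stood at 61.3, 77.4, 65.7, 54.1 and 112 CPM in cycling and 48.9, 61.9, 55.1, 63.8 and 98.7 CPM in non-cycling macrophages of BP replicates 1 and 2, MP, MP+BP and PD+MP, but at 16.5 to 31.1 against 1.33 to 2.77 CPM in Adgrb3-high cells, an interaction of -3.09 ± 0.17 on the log2 scale (edgeR adjusted p = 6.94e-09). *Espl1* stood at 16.2 to 28.7 against 14.4 to 19.7 CPM in macrophages and at 10.5 to 21.9 against 1.16 to 1.86 in Adgrb3-high cells (-3.13 ± 0.23, edgeR adjusted p = 1.41e-07). The levels of both in non-cycling macrophages were therefore within or above the range of cycling Adgrb3-high cells. The interactions of *Slfn8* and *Slfn9* were -3.10 ± 0.48 and -2.93 ± 0.28. *Slfn9* was itself higher in cycling macrophages, at 25.8 ± 3.73 against 17.7 ± 3.91 CPM (SD, n = 5). Its log2 fold change there was 0.66 ± 0.20 (edgeR adjusted p = 0.0276). *Slfn8* lay at only 0.701 to 1.37 CPM in cycling and 0.0295 to 0.156 CPM in non-cycling Adgrb3-high cells, so its step there rests on few UMIs.

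In the other direction, *Cks1b*, a small subunit of cyclin-dependent kinases, rose in macrophages from 34.6 ± 5.39 to 285 ± 35.2 CPM (SD, n = 5) and stood at 121 ± 30.4 in non-cycling and 220 ± 31.4 in cycling Adgrb3-high cells (interaction 2.12 ± 0.13, edgeR adjusted p = 3.19e-08), under every alternative run. *Sdk1*, an adhesion molecule of neurons, rose in macrophages from 18.6 ± 2.53 to 137 ± 79.2 CPM and stood at 345 ± 129 and 494 ± 114 in Adgrb3-high cells (2.19 ± 0.23, edgeR adjusted p = 1.59e-05), and lost the call only without the tumor block. Its cycling macrophage values were 75.7, 244, 69.5, 198 and 95.9 CPM, highest in BP replicate 2, and without any macrophage holding an *Adgrb3* UMI the interaction was 2.55 (edgeR adjusted p = 2.61e-06). The remaining 4 of the 10 most extreme, *Nsg1*, *Ociad2*, *2700069I18Rik* and *Ms4a4c*, lost their calls under 2 or more alternatives. Of 13 dissociation genes 9 had a lower step in macrophages and none a higher one.

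**Figure D5:**
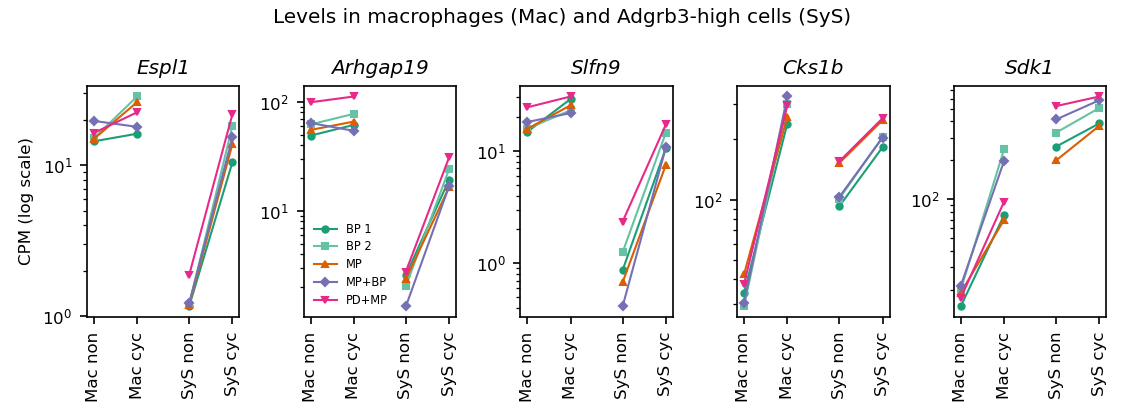
Levels (CPM, log scale) of 5 genes in non-cycling and cycling macrophages (Mac) and Adgrb3-high cells (SyS) of each tumor. *Espl1*, *Arhgap19* and *Slfn9* are steeper in Adgrb3-high cells, *Slfn9* rising in macrophages too, and *Cks1b* and *Sdk1* are steeper in macrophages.

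Between histologies no gene passed the test. Cycling macrophages of the 3 tumors with BP in their label, set against those of the 2 without, gave 0 of 9419 genes in edgeR (0.0%). Before adjustment 203 genes were higher and 168 lower with a p under 0.05, and after it no p was smaller than 0.995. DESeq2 called 1 gene, the platelet factor *Pf4*, which lay between 599 and 884 CPM in the 3 tumors with BP, against 1630 in MP and 2989 in PD+MP. With 34 to 118 cycling macrophages per tumor, the summed libraries held 293088 to 1218095 UMIs, which limits what could be detected here.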

How the data were processed

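Tumors were dissociated and captured with droplet-based 3′ chemistry with UMIs, 1 library per tumor. The authors used Cell Ranger 7.2.0 on mm10, per the labels and file headers, and deposited its filtered matrices of raw UMI counts, neither normalized nor corrected for free RNA. The libraries held 89996321 to 118649103 UMIs. The members, gene lists and tests were chosen with earlier results of these data known. Coordinates came from GENCODE M21 (GRCm38), in which 32158 of 32286 feature IDs were found.

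Cells were gated by the rule given above. Counts were summed per tumor and class, each sum having at least 10 cells, and tested in edgeR 4.0.16 (filterByExpr, TMM scaling, quasi-likelihood test, called or passed at a Benjamini-Hochberg adjusted p under 0.05) with the tumor as a block, since both sums come from 1 tumor. The deviations of both sums of a tumor from their class means correlated at 0.302 to 0.706 across genes. The 13 genes of the rule, mitochondrial genes and EGFP were not tested. SE is the log2 fold change divided by the square root of F. CPM values of single genes are TMM-scaled, and those of list sums are not. Replicates are tumors, and p-values measure the spread between these 5. Shares carry exact (Clopper-Pearson) 95% intervals for counting error. Doublets were scored with Scrublet in scanpy 1.11.5 and kept, except in an alternative that left out the highest scores up to the doublet share expected from the number of cells. Libraries shared 15 to 33 cell barcodes per pair, of which 1 belonged to cycling macrophages of both MP and PD+MP. Named genes were the genes of the rule, a fixed set of 28 regulators and state markers, up to 4 passing genes per list with the largest change and 1 sign in all tumors, the 10 highest and 10 lowest others with at least 20 CPM in a class, the 5 highest and 5 lowest interactions, and up to 5 genes for the BP label. 1 named regulator is not reported here. Genes counted beside a list that are named outside this rule were chosen after their values were seen. DESeq2 1.42.0 was an alternative. Each model was tested on simulated data.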

Additional observations from a re-analysis of the deposited data

Results flagged for a closer look

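Over 92 named values, the within-tumor log2 ratio (CPM plus 1) of 1 tumor lay apart from the other 4 by Dixon's criterion in 5 cases, and chance alone flags about 1 in 20, here 4.6. They were *Lin9* in MP, at 0.91 where the others lay at 1.40 to 1.60, *Cd14* in BP replicate 2, at -1.64 against -0.90 to -0.79, *H2-Aa* in BP replicate 2, at -2.57 against -1.32 to -0.87, *Csf2rb* in MP+BP, at -0.76 against -0.39 to -0.28, and *Txnip* in MP, at -1.85 against -1.04 to -0.70. The step into the cycle differed between macrophages and Adgrb3-high cells, by the interaction test, for the 5 lowest and 5 highest genes, *Espl1* at -3.13, *Slfn8* at -3.10, *Arhgap19* at -3.09, *Slfn9* at -2.93, *Nsg1* at -2.67, *Cks1b* at 2.12, *Ociad2* at 2.14, *Sdk1* at 2.19, *2700069I18Rik* at 2.43 and *Ms4a4c* at 2.91 on the log2 scale. *Ms4a4c* stood at 0 to 1.48 CPM in all sums of Adgrb3-high cells, so its value rests on very few UMIs there. In the EGFP entry, which no comparison of genes used, 3.24% of cycling macrophages held a UMI, above the 1.16% of non-cycling macrophages, which are shallower.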

How the results depend on the processing

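Of 1816 genes called between cycling and non-cycling macrophages, 911 were called in the same direction with UMI-matched cells, where 594 were higher and 427 lower, and 753 without the replicate block, where 626 were higher and 128 lower. Scaling by total counts alone left 530 lower and raised the higher share of calls from 55.1% to 69.8%. DESeq2 shared 1234 of its 1240 calls with edgeR. Leaving out each tumor gave 749 to 920 higher and 525 to 763 lower, with 525 lower when PD+MP was left out, and the 3 tumors with at least 100 cycling macrophages, a choice added after seeing the data, gave 865 and 663. No called named gene changed sign under any alternative run. The sign turned for genes that had not passed: *Folr2* (-0.013 without the filter, -0.30 UMI-matched, -0.0036 at 5 or more UMIs, -0.25 in the 3 tumors, -0.094 to 0.37 leaving out each tumor), *Myc* (-0.036 in the 3 tumors, -0.011 to 0.29 leaving out each tumor), *Ccnd1* (-0.10 UMI-matched), *Rb1* (0.032 UMI-matched), *Rbl2* (-0.0097 UMI-matched, -0.14 in the 3 tumors, -0.054 to 0.20 leaving out each tumor) and *Spp1* (0.36 without the replicate block). Without the block 34 named calls within macrophages were lost, among them *Klf4*, *Cd14*, *Isg15* and the MHC class II genes. The call was lost on leaving out any 1 of the 5 tumors for *Hk2*, any 1 of 4 for *Egr2* and *Ccnd3*, any 1 of 3 for *Trem2* and *Csf2rb* and any 1 of 2 for *Bst2* and *Ctps*. It was lost without BP replicate 1 for *E2f1*, without MP for *Hmox1* and without PD+MP for *Asl* and *Trim30d*. The edgeR adjusted p-values then lay between 0.0537 and 0.238. Calls were gained, all as lower, under 6 alternatives for *Ccnd2* (-0.97 to -0.44) and 4 each for *Ccr2* (-0.97 to -0.73), *Cdkn1a* (-0.43 to -0.32) and *Spp1* (-1.82 to -1.07).

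The interaction counts moved most. Higher and lower were 168 and 1747 without a filter, 321 and 773 with at least 10 counts in every sum, 572 and 841 in DESeq2, 323 and 572 with DESeq2 size factors, which took the higher share of calls from 49.1% to 36.1%, 6 and 10 with no replicate block, 117 and 1778 without the highest doublet scores, 84 and 1603 without *Adgrb3* UMIs, and 904 and 392 over the 9270 genes tested in macrophages, an added choice. Leaving out each tumor gave 76 to 288 higher and 238 to 1003 lower, namely 181 and 267 without BP replicate 1, 76 and 1003 without BP replicate 2, 267 and 296 without MP+BP, and 210 and 238 without PD+MP. The causes were not tested. For the BP label DESeq2 gave 0 higher and 1 lower, leaving out MP gave 10 and 21, with 1 tumor then standing alone and assumed to vary like the others, and leaving out any other tumor gave 0. Unthinned, the *Mrc1* share difference was 4.76 and the *Ccr2* one 0.568. Leaving out each tumor gave -19.2 to -6.15 for the BP label's share difference, -7.48 to -2.42 against Adgrb3-high cells, -3.97 to -1.03 by *Mrc1*, -5.23 to -1.78 by *Ccr2* and -6.26 to -1.64 by *H2-Aa*. Depth limits single tumors most in BP replicate 2 and MP+BP, with 38 and 34 cycling macrophages.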
